A study of Mus musculus with 26 samples.

Results

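The regions described here were stretches of the mouse genome at which an ATAC-seq peak was listed in all 6 libraries of cultured pre-B cells and in neither library of sorted small pre-B cells labelled CXCR4-/-. They were chosen by that presence and absence alone, after peaks of the 8 lists that shared at least 1 bp had been merged into regions. The merging covered chromosomes 1 to 9 and 13 to 19 and left out 67 to 71 Mb of chromosome 6, which holds the immunoglobulin kappa locus. Of 58551 merged regions 493 met the rule, which is 0.842% of all regions and 2.87% of the 17200 regions with a peak in all 6 culture lists. The peaks that chose these regions are given as a description with no test. Their number says nothing about how culture acts, because membership was fixed by the same lists.

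ATAC-seq uses a transposase that cuts DNA where nucleosomes and bound proteins leave it free, so that sequenced fragments pile up at open promoters, enhancers and other accessible sites. A peak is a place where a caller found more fragments than around it. A missing peak does not show closed chromatin, since a weak signal can fall under the limit of a list. Pre-B cells are the bone marrow stage after heavy chain rearrangement, in which light chain rearrangement takes place. They proliferate under interleukin 7 (IL-7) and become small, resting cells when its signal fades. CXCR4 is the receptor for CXCL12, a chemokine made by bone marrow stromal cells that holds B cell progenitors in their niche.

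The study addressed how CXCR4 signalling bears on Igk recombination and late B cell development, with RNA-seq in 18 libraries and ATAC-seq in 8. The ATAC-seq groups had 2 libraries each. Flow-sorted primary CXCR4-/- small pre-B cells formed the first, and cultured pre-B cells the other groups, named by their medium as IL7+ (IL-7 present), IL7- (IL-7 absent) and IL7- CXCL12+ (CXCL12 present in the absence of IL-7). The cultured cells carry no CXCR4-/- label, and a sorted CXCR4-sufficient ATAC-seq list was not analysed here. Culture, sorting, cell stage and CXCR4 genotype therefore cannot be told apart as the condition that goes with these regions. The labels do not say whether replicates came from separate animals or cultures.

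The sorted lists were longer, with 66503 and 57721 peaks against 30832 to 42205 in the culture lists, and the lowest score in every list was close to 5. Chromosome 10 held 7.28% and 7.67% of the sorted peaks but 13.6% to 16% of the culture peaks, and the rule left it out together with chromosomes 11, 12, X and Y. RNA-seq libraries of the corresponding 4 groups are other libraries than the ATAC-seq ones, and 2 of them were placed by medium and replicate number. Replicate 2 of IL7- is titled as small pre-B, and the table column of replicate 2 of IL7- CXCL12+ is named so too. These groups had 10 of 10 B lineage markers and 7 of 7 pre-B stage markers at 1 CPM (a count scaled to the library total) or more in each of 8 libraries. Their levels differed. Of the 7 stage markers Il2ra, Rag1, Rag2 and Il7r were higher in both sorted libraries than in any culture, and Vpreb1 was lower. Rag1 stood at 1552 and 1767 CPM in sorted cells and 96.3 to 452 CPM in the cultures. Of the 10 B lineage markers Cd72 and Vpreb3 were higher in both sorted libraries and Cd24a was lower. Summed stromal markers came to 206 and 30.5 CPM in sorted cells. The cultures had 893 and 1513 CPM in IL7+, 2349 and 2329 CPM in IL7- and 5850 and 5757 CPM in IL7- CXCL12+ medium. Most of the sums in sorted cells came from Fn1, at 172 and 18.6 CPM, which stood at 208 to 1471 CPM in the cultures. Of 14 stromal markers 6 and 4 reached 1 CPM in the sorted libraries and 12 or 13 in each culture library. Lum was at 0 in all 8, and Col3a1, Dcn, Postn and Pdgfra were at 0 in sorted replicate 2. Col1a1, the main collagen of fibroblasts and bone-forming cells, stood at 1.11 and 0.439 CPM in sorted cells and between 80.3 and 508 CPM in the cultures. Both sorted libraries lay below all 6 culture libraries in 12 of the 14 stromal markers. The 19 myeloid markers did not move together. Their sum was 7307 and 1330 CPM in sorted cells and 325 to 1176 CPM in the cultures. The 8 genes Camp, Elane, Ltf, Mpo, Ngp, Prtn3, S100a8 and S100a9, which encode granule and other abundant neutrophil proteins, were higher in both sorted libraries than in any culture. C1qb, Cd14, Cd68 and Ctss, genes known from monocytes and macrophages (Ctss also from B cells), were lower in both. The part of stromal, myeloid and stage markers in the regions was not tested. Cxcr4 read 37.8 and 412 CPM in the sorted RNA libraries labelled CXCR4-/- and 117 to 246 CPM in the cultures, so that replicate 2 lay above every culture library and went against its label. Whether the counted reads fall in the deleted part of the gene is not known here. The genotype of the ATAC-seq libraries was not tested.

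The culture-only regions were narrow at the deposited length of the lists. Their median width was 471 bp, with quartiles at 359 and 641 bp and a range of 209 to 2579 bp, and all 493 together covered 264.1 kb. In the higher-scoring part of each list, which drops weak peaks, the median width of the regions that met the rule was 792 bp. Regions with a peak in all 8 lists (n = 16437) had a median width of 967 bp, or 904 bp when measured from the culture peaks alone. Single peaks showed the same order. In the 6 culture lists the median peak inside a culture-only region was 358 to 389 bp wide, and in a region of all 8 lists 650 to 803 bp wide. Regions found in both sorted lists and in no culture list (n = 13564) were about as narrow, at a median of 444 bp. Narrow width was thus shared with the reverse set. The classes that follow use the width of the merged culture peaks in both sets. Between 300 and 400 bp lay 117 of the culture-only regions (23.7%) and 101 of the regions in all 8 lists (0.614%). At 250 bp or less lay 44 (8.92%) against 15 (0.0913%). At the wide end, 25 culture-only regions (5.07%) exceeded 1 kb by this width, as did 6312 (38.4%) of those in all 8 lists.

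**Figure D1:**
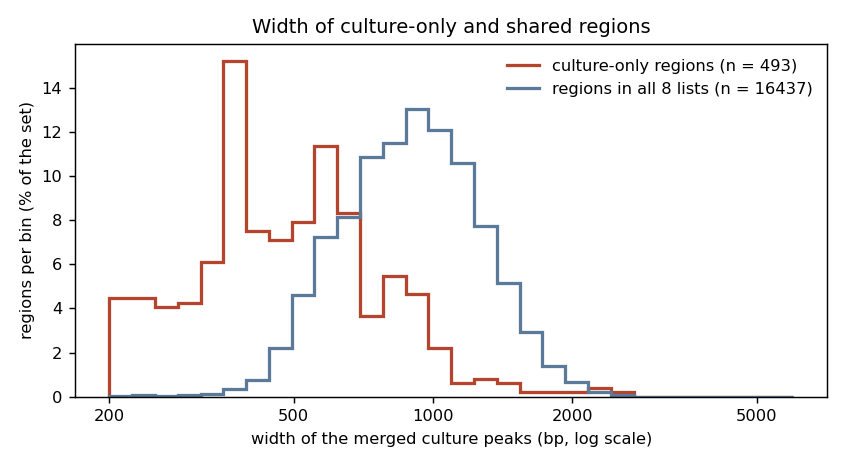
Distribution of the width of the merged culture peaks (bp, log axis) as a percentage of each set, for the 493 culture-only regions and the 16437 regions with a peak in all 8 lists. The culture-only regions centre on 471 bp and the regions in all 8 lists on 904 bp.

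Most of the regions were also weak within their own lists. Each peak carries a score given by the authors, on a scale that the sources used here do not state, and it was used only to rank peaks within a list. The median score inside a culture-only region was 11.9 and 11.7 in the IL7+ lists, 13.1 and 11.5 in the IL7- lists, and 11.01 and 10.8 in the IL7- CXCL12+ lists. Regions of all 8 lists had medians of 33.2 and 29.3, 36.9 and 31.8, and 30.5 and 26.6 in the same lists. In each of the 6 lists the culture-only median lay below that of the regions in all 8. Scores of different lists are not on a shared scale, so lists are compared with each other by rank alone.

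Expressed as the percentage of a list's peaks that scored no higher, the culture-only medians were 42.6, 39.4, 46.0, 40.5, 39.7 and 36.7%, in the order IL7+, IL7- and IL7- CXCL12+ with replicate 1 before 2. Those of the regions in all 8 lists were 71.8, 66.5, 75.3, 70.2, 70.5 and 65.4%. Regions found in both sorted lists and in no culture list had a median percentile of 33.3% in the sorted lists, against 40.4% for culture-only regions in the culture lists. Low rank was thus shared with the reverse set. Of the 493 regions 217 (44.0%) lay below the list median in every culture list and 72 (14.6%) lay above it in every one. For regions in all 8 lists these shares were 7.23% and 61.9%. The lowest of a region's 6 percentiles had a median of 23.4%, and in 69 regions (14.0%) it was under 5%, so that these came close to missing a list. A single region was in the top 10% of every culture list.

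**Figure D2:**
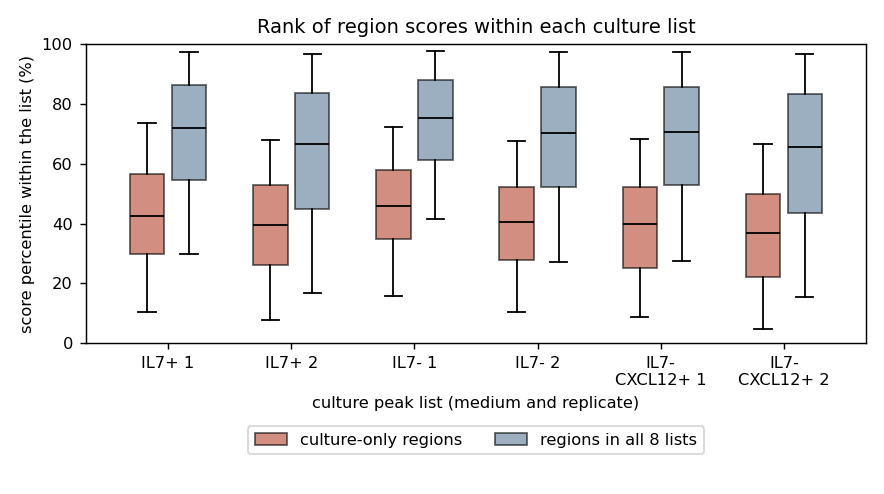
Score percentile within each of the 6 culture lists (%) for culture-only regions and for regions in all 8 lists. Boxes span the quartiles with the median as a line and whiskers span the 5th to the 95th percentile of regions. In every list the culture-only median, from 36.7 to 46.0%, lies below that of the regions in all 8 lists.

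Lists of equal length gave more than 1.5 times as many such regions. When each list was shortened to its 30832 highest-scoring peaks, 1587 regions met the rule, with a median width of 674 bp. Leaving out sorted replicate 1, the longest list, gave 725 regions, and leaving out any other list gave fewer. The number 493 therefore belongs to these lists at their deposited length.

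Just outside the rule, 270 regions had a peak in all 6 culture lists and in 1 sorted list. Of these 230 had it in sorted replicate 1, at a median percentile of 19.6% of that list and a median score of 7.57, and 40 had it in sorted replicate 2, at 11.4% and 6.59. The lone sorted peaks thus had low medians, but the highest stood at 55.6% and 47.3% of the 2 lists. These regions had a median width of 624 bp and a median culture percentile of 44.4%, against 40.4% in the culture-only regions. Another 239 regions had no sorted peak and lacked 1 culture list. The missing list was an IL7+ list in 23 and 34, an IL7- list in 22 and 44, and an IL7- CXCL12+ list in 48 and 68. Their median width of 468 bp was close to that of the culture-only regions, and their median percentile was 23.7%.

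The 10 strongest regions are given with their scores, and the order of the media in each was read from its ranks among the 17200 regions with a peak in all 6 culture lists, called the common ranking here. The strongest lay at chr17:36621460-36622064 (genome build mm9, as are all coordinates here) and was 605 bp wide. Its scores were 105 and 88.0 in the IL7+ lists, 118 and 125 in the IL7- lists, and 106 and 109 in the IL7- CXCL12+ lists. All 6 stood far above the list medians, with percentiles from 94.5 to 99.4%, and both IL7- lists were the highest in the common ranking. The starts of its 6 peaks agreed within 11 bp and their ends within 5 bp. The nearest sorted peak was 99182 bp away.

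The next 2 by median percentile scored lower. The region at chr13:4560331-4560923 (593 bp) scored 73.8 and 66.4 in IL7+, 75.9 and 72.5 in IL7-, and 78.8 and 86.4 in IL7- CXCL12+ lists, a median percentile of 91.2%. Both IL7- CXCL12+ lists ranked highest, at 88.0 and 92.6% against 81.5 to 84.0% in the other 4. The region at chr18:85885359-85886209 (851 bp) scored 68.1 and 59.0, 68.6 and 73.5, and 68.7 and 62.8 in the same order, a median percentile of 89.1%, and its media overlapped in rank.

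A pair of wide regions on chromosome 5 followed. At chr5:80242318-80243898 (1581 bp) the scores were 58.5 and 53.3 with IL-7, 62.9 and 53.6 without it, and 64.4 and 53.1 with CXCL12 in its place. Both IL7- CXCL12+ lists ranked highest there, by a narrow margin of 75.6 against 75.3%. All 6 starts agreed within 7 bp and all ends within 17 bp, and the nearest sorted peak was 685856 bp away. At chr5:105356454-105357705 (1252 bp) the scores were 49.6 and 53.6, 61.1 and 54.0, and 51.9 and 61.0, and the media overlapped in rank.

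Lower in the ranking, chr2:98175499-98176695 (1197 bp) held 7 peaks in the 6 lists and scored 35.9 and 49.5 with IL-7, 53.3 and 47.9 without it, and 46.2 and 40.4 with CXCL12. Another culture-only region lay 327 bp from it. The region at chr9:13422496-13423297 (802 bp) scored 50.3 and 38.1, 42.8 and 40.2, and 43.0 and 47.3. The media overlapped in rank in the former, and in the latter both IL7- lists ranked lowest, at 58.4 and 60.1% with the next at 60.6%.

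The remaining 3 of the 10 strongest were at most 512 bp wide. At chr7:71640661-71641116 (456 bp) the scores were 37.1 and 32.1 with IL-7, 41.2 and 45.0 without it, and 41.4 and 40.6 with CXCL12, and both IL7+ lists ranked lowest. At chr2:165775138-165775649 (512 bp) they were 44.5 and 51.6, 41.3 and 31.5, and 32.3 and 31.2. Both IL7+ lists ranked highest there, and a sorted peak lay 586 bp away. At chr13:73877771-73878194 (424 bp) they were 46.2 and 51.1, 35.2 and 35.9, and 26.7 and 39.4, and the media overlapped in rank. The gap to the nearest sorted peak among the 10 strongest ranged from 586 to 685856 bp, so strong culture-only regions occurred both beside sorted peaks and far from any.

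The widest regions were not the strongest. The region at chr4:41896220-41898798 spanned 2579 bp and was made of 10 peaks in the 6 lists, with scores of 8.49 to 12.5 and a median percentile of 38.0%. The region at chr14:45290423-45292700 spanned 2278 bp with 11 peaks, scores of 20.5 to 32.1 and a median percentile of 65.3%. The region at chr4:146404392-146406331 spanned 1940 bp with 8 peaks and a median percentile of 18.6%. These 3 were chains with more than 1 peak in at least 1 list. The other 2 had 1 peak per list. They lay at chr6:114585364-114587572 (2209 bp, median percentile 65.0%) and chr14:20453302-20455043 (1742 bp, 73.8%), and the former had starts within 27 bp of each other. Chains were uncommon, since 477 of the 493 regions held exactly 6 culture peaks.

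A feature the rule did not use was how closely the 6 lists agreed on the ends of a region. In 60 culture-only regions (12.2%) the 6 starts lay within 20 bp of each other and so did the 6 ends. Among regions in all 8 lists this held for 77 (0.468%). The limit of 20 bp was chosen after the values had been seen. At 10 bp the shares were 5.48% and 0.219%, and at 50 bp 27.8% and 2.02%. Shared ends went with small width. Of the 60, 33 were 250 bp wide or less and 20 were over 300 and up to 400 bp, and their median width was 233.5 bp against 513 bp in the other 433. By width of the culture peaks, shared ends were more frequent among regions in all 8 lists than among culture-only regions in each class up to 400 bp. The numbers were 13 of 15 against 33 of 44 up to 250 bp (86.7% and 75%), 5 of 13 against 2 of 33 from there to 300 bp (38.5% and 6.06%), and 27 of 101 against 20 of 117 from 300 to 400 bp (26.7% and 17.1%). The order of 12.2% and 0.468% over all widths thus turned round within these narrow classes. It held in the wider classes, with few regions in each. The numbers were 20 of 2009 against 3 of 149 from 400 to 600 bp (0.996% and 2.01%). They were 7 of 7987 against 1 of 125 from there to 1000 bp (0.0876% and 0.8%). Above 1000 bp they were 5 of 6312 against 1 of 25 (0.0792% and 4%). The scores of the 60 were spread widely. The median percentile of the 60 was 34.9%, with a range of 13.2 to 98.4%, and the strongest region of all was among them. Chromosome 13 held 10 of the 60, and chromosomes 8 and 16 held 0.

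**Figure D3:**
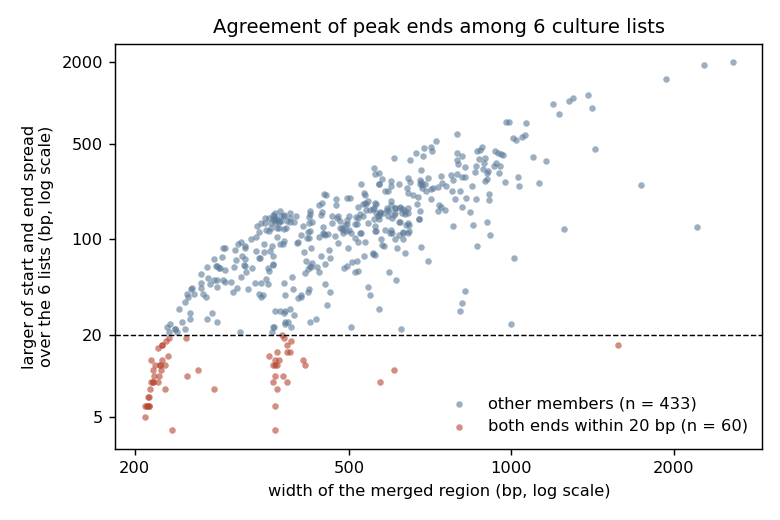
Each point is 1 of the 493 culture-only regions, by its width (bp, log axis) and the larger of the spreads of its peak starts and peak ends over the 6 culture lists (bp, log axis). The 60 regions under the dashed line at 20 bp gather below 250 bp and between 350 and 400 bp, and the region at 1581 bp stands alone at the right.

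The regions lay on all 16 chromosomes of the rule but not in proportion to the regions found in all 8 lists. Chromosome 7 held 64 of them (13%, against 8.79% of the regions in all 8), chromosome 13 held 47 (9.53% against 5.31%) and chromosome 14 held 41 (8.32% against 4.26%). Chromosome 8 held 18 (3.65% against 6.48%) and chromosome 2 held 31 (6.29% against 9.83%). As a share of regions with a peak in all 6 culture lists, culture-only regions ran from 1.64% on chromosome 8 to 5.48% on chromosome 14, with 5.03% on chromosome 13 and 4.15% on chromosome 7. The chromosomes next in order, 17 (3.20%), 3 (2.95%) and 6 (2.94%), were close to the 2.87% over all 16. On chromosomes 7, 13 and 14 the excess was not made by regions with shared ends alone, which numbered 3, 10 and 2 there.

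**Figure D4:**
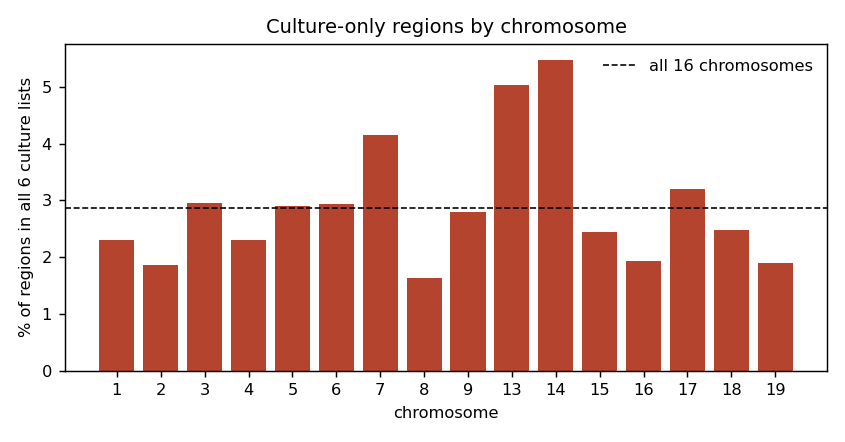
Culture-only regions as a percentage of the regions with a peak in all 6 culture lists, for each of the 16 chromosomes (bars, from 0), with the value over all of them as a dashed line. Chromosomes 14, 13 and 7 stand highest and chromosome 8 lowest.

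Sorted-cell peaks were often nearby. The nearest sorted peak was within 1 kb of 68 regions (13.8%), within 10 kb of 225 (45.6%) and within 100 kb of 409 (83.0%), with a median gap of 12.1 kb and a largest gap of 933.2 kb. In the reverse set, sorted-only regions had a culture peak within 1 kb in 11.1% and within 100 kb in 94.4%, with a median gap of 7.97 kb. The nearest region of all 8 lists was farther from the culture-only regions, at a median of 47.9 kb and within 10 kb in 24.3%. When each list's peaks had to cover at least 50% of a region, the share with a sorted peak within 1 kb was 25.3%. Under that setting a region can meet the rule although a sorted peak overlaps less than 50% of it. The rise therefore says nothing about nearness.

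Many regions had company. Another culture-only region lay within 1 kb of 54 (11%), within 10 kb of 131 (26.6%) and within 100 kb of 167 (33.9%), although the median gap was 388 kb. In fixed windows of 100 kb, 342 windows held 1 region, 35 held 2, 12 held 3 and 9 held 4 or more. The fullest was chr7:67000001-67100000 with 8 regions over 41.7 kb, each 232 to 557 bp wide and at median percentiles of 28.1 to 56.4%. It held 29 merged regions in all, 17 of them with a sorted peak, and the 8 culture-only regions lay 186 to 1256 bp from a sorted peak. Windows at chr6:47700001-47800000 and chr9:3000001-3100000 held 6 each, over 19.5 and 26.9 kb, with sorted peaks in 13 of 21 and 17 of 25 merged regions. The window at chr3:28700001-28800000 held 5 within 7.44 kb, with sorted peaks in 2 of 8 regions, and 2 of the 5 had shared ends. Another 5 windows tied with 4 each, on chromosomes 2, 3, 6, 7 and 18. Those on chromosomes 18, 3 and 6 held no region with a sorted peak, among 6, 4 and 10 merged regions. Dense groups of culture-only regions thus occurred both among sorted-cell peaks and in windows without one.

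The rule took no account of the order of the 3 culture media, which can therefore be described separately. In the common ranking of the 17200 regions a region was counted for a medium when its 2 ranks lay both above or both below the 4 ranks of the other media. Both IL7+ ranks were the highest in 77 culture-only regions (15.6%), beside 10.6% of the 17200, and the lowest in 20 (4.06%), beside 10.8%. Both IL7- ranks were the highest in 11 (2.23%), beside 6.59%, and the lowest in 71 (14.4%), beside 6.38%. Both IL7- CXCL12+ ranks were the highest in 44 (8.92%), beside 7.44%, and the lowest in 18 (3.65%), beside 7.1%. Culture-only regions were thus placed more often at the top for IL7+ and at the bottom for IL7- than the background. This skew was not particular to them. In the 270 regions with a lone sorted peak described above, both IL7+ ranks were the highest in 28.5% and both IL7- ranks the lowest in 12.2%. For IL7- CXCL12+ those regions differed from the culture-only regions, with both ranks the highest in 4.44% and the lowest in 9.63%. The share of culture-only regions with any such separation, 192 of 493 (38.9%), was near the 40.3% of regions in all 8 lists. In the culture-only regions the skew depended on the set in which ranks were taken. Ranked among the 493 alone, 53 were highest and 51 lowest for IL7+, 35 and 28 for IL7-, and 44 and 35 for IL7- CXCL12+. That ranking removes a shift of the whole set against the 17200 by construction, so it cannot show whether the skew holds. With 2 lists against 4 no test was made. The lists differed in length, with 37338 and 31659 peaks in IL7+, 42205 and 35299 in IL7-, and 35800 and 30832 in IL7- CXCL12+. Near the low end close scores had unlike ranks. At chr17:6492262-6492484 a score of 8.52 ranked at 2.07% in IL7- replicate 1, the longest culture list. A score of 8.41 ranked at 10.45% there in IL7+ replicate 2. The part of list length in the skew was not tested. The stromal markers given above also differed between the media, and their part was not tested.

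The largest separation for a medium was at chr14:25981173-25981964 (792 bp), which scored 51.8 and 56.4 in IL7+, 15.1 and 8.44 in IL7-, and 10.4 and 7.68 in IL7- CXCL12+ lists. Both IL7+ lists stood apart there, at 69.2 and 74.99% of the common ranking against 6.12 to 14.2% in the other 4. At chr17:10559900-10560430 (531 bp) the scores were 24.4 and 29.7, 12.1 and 9.48, and 7.82 and 7.12. At chr17:34777843-34778287 (445 bp) they were 31.1 and 29.9, 9.68 and 7.10, and 8.54 and 10.8. In these 3 the 4 lists without IL-7 stood at 20.1% of the common ranking or lower.

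Separations in the other directions were smaller. For IL7+ lower, the 3 largest gaps in the common ranking were 5.41 percentage points at chr5:32546935-32547562, 4.67 at chr2:129772960-129773340 and 4.08 at chr2:32825854-32826331. For IL7- higher, they were 6.05 at chr14:33260113-33260559, 3.75 at chr4:115523186-115523644 and 3.63 at chr15:80352046-80352679. For IL7- lower, they were 8.54 at chr13:30463111-30463360, 8.39 at chr18:67240635-67240896 and 8.26 at chr13:93970034-93970254. The last 3 were 221 to 262 bp wide, and all had shared ends.

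For IL7- CXCL12+ the 3 largest gaps in each direction lay between 6.5 and 17.6 percentage points. At chr2:129772960-129773340 (381 bp) the IL7- CXCL12+ lists scored 24.9 and 24.6, the IL7- lists 19.1 and 16.2 and the IL7+ lists 12.7 and 10.8. The media there followed 1 order, with the 2 lists of each medium next to each other. At chr7:51435880-51436301 (422 bp) the scores were 18.99 and 18.7 with CXCL12, 13.9 and 12.0 without either factor and 12.7 and 11.7 with IL-7. At chr17:39265735-39266105 (371 bp) they were 14.4 and 13.3, 13.1 and 6.06, and 9.20 and 9.21 in the same order. In these 3 regions both lists with CXCL12 ranked highest.

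The opposite order was found at chr6:48751908-48752332 (425 bp), where the IL7- CXCL12+ lists scored 11.8 and 9.99, the IL7- lists 22.8 and 20.7 and the IL7+ lists 19.99 and 17.1. At chr13:51513865-51514417 (553 bp) the scores were 7.58 and 6.23 with CXCL12, 18.7 and 13.9 without either factor and 12.7 and 12.6 with IL-7. At chr3:145200758-145201283 (526 bp) they were 12.7 and 12.2, 22.8 and 22.6, and 24.2 and 25.6. Both lists with CXCL12 ranked lowest in each of these regions, and the other 2 media kept no common order among them.

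**Figure D5:**
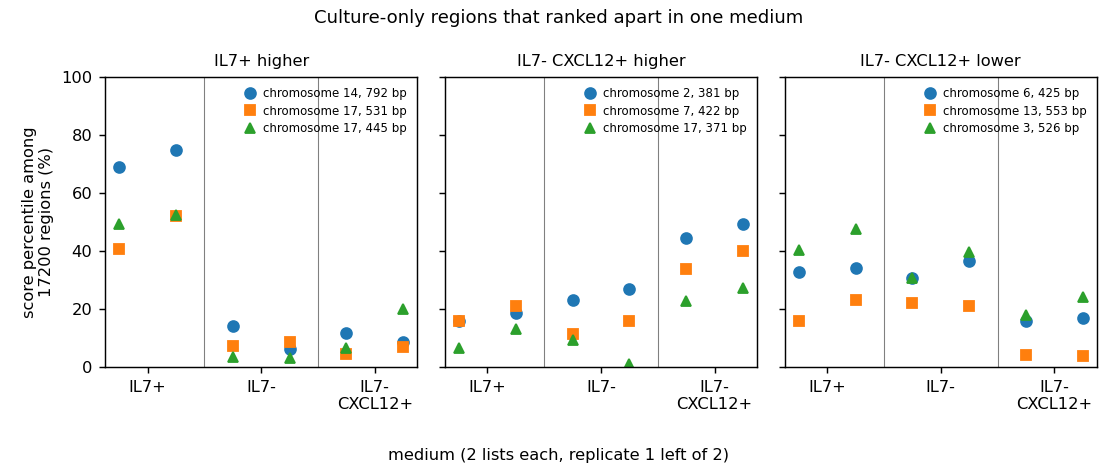
Score percentile among the 17200 regions with a peak in all 6 culture lists (%), by medium with replicate 1 left of replicate 2, for the 3 culture-only regions with the largest gap in each of 3 directions. The left panel shows both IL7+ lists between 40.6 and 74.99% and the other lists at 20.1% or lower.

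Culture-only regions kept their order less closely from list to list than regions in all 8. Across the 493 regions Spearman's rho was 0.723, 0.661 and 0.738 between the 2 lists of IL7+, IL7- and IL7- CXCL12+, and 0.580 to 0.732 between lists of different media. Across the 16437 regions in all 8 lists it was 0.959, 0.951 and 0.95 within a medium and 0.927 to 0.958 between media. These are descriptions across regions of the same libraries, so the points of a set are not independent. The ranges within and between media overlapped in both sets. Culture-only regions also had lower scores, and many were tied, with 290 to 324 distinct scores among the 493 in each culture list. The part of score level and ties in the lower rho was not tested.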

How the data were processed

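ATAC-seq peaks were deposited as 1 list per library with a score per peak, whose scale is not given in the sources used here. RNA-seq was deposited as 1 table of raw read counts per gene symbol. The authors used build mm9 with MACS2, bedtools, BWA, STAR, featureCounts and Picard, per the submitters' processing notes. Their versions and roles, read shifting, duplicate handling and sequencing depth are not given in the sources used here, so the precision of a peak cannot be stated. Per the labels' protocols, nuclei of flow-sorted or cultured cells were tagmented and the libraries size-selected.

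Peaks of the 8 lists were merged at an overlap of 1 bp (Python 3.11.15, pandas 2.3.3, numpy 2.4.6), and the merging was checked on simulated lists and against bedtools 2.31.1. A region took the highest score of its peaks in a list, ranked over the whole list as a percentile. Widths and gaps are in bp. The 493 regions, the gene lists and the comparisons were chosen with earlier results of these data known. Named regions were the 10 with the highest median percentile, the 5 widest, the 5 fullest windows of 100 kb with ties, and for each medium and direction the 3 with the largest rank gap. RNA counts were divided by library totals (17257914 to 44727809 in the 8 libraries used) to give CPM, with no further scaling and no test. Endothelial, T cell, NK cell and erythroid markers were counted as well. An mm9 annotation and sequence were not used here, so no gene or sequence is given for a region and the planned edgeR test was not run. Alternatives were 50% coverage, merging over 200 bp, the higher-scoring part of each list, equal lengths, all autosomes and X, each list left out in turn, ranks among the regions alone and, added after the data were seen, the omission of regions with shared ends and other tolerances.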

Additional observations from a re-analysis of the deposited data

Results flagged for a closer look

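On chromosomes outside the rule, the same pattern of peaks was more frequent. On chromosome 10, 2034 of 3300 regions with a peak in all 6 culture lists had no sorted peak (61.6%), compared with 2.87% on the 16 chromosomes of the rule. Shared ends were found in 553 of the 2034 (27.2%), and the median width was 381 bp. They crowded toward the start of the chromosome, with 565 in the first 10 Mb and 19 in the last bin, while regions in all 8 lists numbered 91 and 125 there. On chromosome X the culture-only regions numbered 240 of 692 (34.7%) and on chromosome Y 81 of 83 (97.6%). The sorted lists held 7 and 9 peaks on chromosome Y and the culture lists 110 to 122. Chromosomes 11 and 12 gave 127 of 1659 (7.66%) and 75 of 901 (8.32%). The cause was not tested.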

How the results depend on the processing

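The count of 493 regions stayed within 1.5 times under 50% coverage (487), merging over 200 bp (474) and the higher-scoring part of each list (387). Omitting the regions with shared ends left 433, which their number fixed in advance. Lists of equal length gave 1587, and all autosomes with X gave 2969. The median width was 494 bp with merging over 200 bp, 792 bp in the higher-scoring part, 674 bp at equal length, 401 bp with all autosomes and X, and 513 bp without shared ends. The median lowest percentile (23.4%) became 27.3% at 50% coverage, 60.9% in the higher-scoring part, 34.5% at equal length and 32.5% with all autosomes and X. The higher-scoring part and equal length drop weak peaks by construction. For the other changes the cause was not tested. The share with a sorted peak within 1 kb (13.8%) became 25.3% at 50% coverage, 10.6% in the higher-scoring part and 8.72% with all autosomes and X. The 50% setting lets in regions that a sorted peak overlaps in part, so that share can rise by construction. The share within 100 kb of another such region (33.9%) became 45.8% at equal length and 80.4% with all autosomes and X. Ranked among the 493 regions alone, 53 were highest and 51 lowest for IL7+, against 77 and 20 in the common ranking. For IL7- they were 35 and 28, against 11 and 71. For IL7- CXCL12+ they were 44 and 35, against 44 and 18. Over all 17200 regions the common ranking gave 10.6 and 10.8%, 6.59 and 6.38%, and 7.44 and 7.1% in the same order. Ranking within the 493 removes a shift of the whole set by construction. Shared ends were found in 5.48% at 10 bp and 27.8% at 50 bp.

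Leaving out each list in turn gave counts of 515 to 725, median widths of 448 to 537 bp, lowest percentiles of 22.6 to 24.8%, shares within 1 kb of a sorted peak of 12.9 to 14.6% and shares within 100 kb of another region of 33.4 to 36.4%. No paired analysis was made, because the labels do not say whether replicates of different groups share an animal or culture. The results are counts and ranks of peaks that come from no test. The gene test of the RNA counts was not run. Depth is unknown, so a region without a sorted peak was not detected in those lists, which does not show that it was closed.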

Other observations

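The 270 regions with a peak in all 6 culture lists and in 1 sorted list were also set by medium. Both IL7+ ranks were the highest in 77 of them (28.5%), beside 10.6% of the 17200, and the lowest in 8 (2.96%), beside 10.8%. Both IL7- ranks were the lowest in 33 (12.2%), beside 6.38%, and the highest in 4 (1.48%), beside 6.59%. Both IL7- CXCL12+ ranks were the highest in 12 (4.44%), beside 7.44%, and the lowest in 26 (9.63%), beside 7.1%. Shared ends were found in 4 of the 270 (1.48%). They were defined over all 6 culture lists, so they could not be counted in the 239 regions that lacked 1 culture list and both sorted lists.

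Among the other marker lists in the RNA-seq libraries, summed endothelial markers came to 291 and 313 CPM in the sorted CXCR4-/- cells and 98.3 to 225 CPM in the cultures, most of it from Pecam1. Summed T cell markers came to 31.3 to 73.7 CPM over the 8 libraries, of which Lck, a kinase that B lineage cells can also express, gave 28.4 to 73.0 CPM. Cd3d, Cd3e, Cd3g, Cd8a, Cd8b1 and Bcl11b were below 1 CPM in all 8. Summed NK cell markers came to 23.8 and 11.4 CPM in sorted cells and 2.71 to 4.32 CPM in the cultures. Summed erythroid markers came to 26.5 and 3.15 CPM in sorted cells and to 1.62 CPM or less in the cultures, with Hbb-b1, Hbb-b2, Hba-a1 and Hba-a2 at 0 in all 8 libraries.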
